A study of Mus musculus with 4 samples.

Results

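Coro1a, Cyfip2, Syt12, Sat1, Mdk and Pycard are 6 of the 26041 genes listed in the count tables of sorted germ cells of 2 genotypes, Plzf +/+ and Plzf lu/lu. They were chosen by their higher level in Plzf lu/lu cells, so the genotype values below describe the choice and carry no test. All cells came from testes of 4 wk mice with the Eomes-iCreERt2-tdTomato knock-in on a B6N.Cg background, present in both genotypes, and tdTOMATO-positive cells were sorted singly into wells of 384-well plates. Plzf lu/lu mice are homozygous for luxoid, a mutation of Plzf (gene symbol Zbtb16), a transcription factor of undifferentiated spermatogonia. Cells were sorted on the reporter, not on Eomes transcript, and the labels name no animals, so the spread between plates need not hold that between mice. There were 3 libraries of Plzf +/+ cells (plates 1, 2 and 4 with 317, 303 and 277 cells) and 2 of Plzf lu/lu cells (plates 3 and 4 with 314 and 38 cells), and plate 4 held both genotypes.

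Coro1a encodes a coronin, an actin-binding protein that is abundant in leukocytes. Cyfip2 is a subunit of the WAVE complex, which passes Rac signals to actin branching by Arp2/3. Syt12 is a synaptotagmin, of a family of membrane trafficking proteins of which many bind calcium. Sat1 acetylates spermidine and spermine, the step that starts polyamine breakdown and export. Mdk encodes midkine, a secreted heparin-binding growth factor, and Pycard encodes ASC, the adaptor that links inflammasome sensors to caspase-1. In the testis, undifferentiated spermatogonia include the stem cells, many of which carry GFRA1, the co-receptor for the growth factor GDNF from Sertoli cells.

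The members lie apart in the mouse genome (GRCm38). Mdk is on chromosome 2 (chr2:91929805-91932297), Coro1a and Pycard are on chromosome 7 (chr7:126699774-126704816 and chr7:127991373-127993867), Cyfip2 is on chromosome 11 (chr11:46193849-46312859), Syt12 is on chromosome 19 (chr19:4445908-4477143) and Sat1 is on chromosome X (chrX:155213126-155216449). All 6 are protein-coding. The RefSeq promoter windows of GRCm38.p6, 250 bases before to 50 bases after a transcript start, matched 4 of the members with 5 windows, and Syt12 and Mdk had no entry. One window for each of the 4 genes is printed to show how their start regions differ in base composition; all are on the minus strand, read 5′ to 3′, with GC boxes (GGGCGG on either strand) in capitals.
Coro1a, upstream start, chr7:126704767-126705066: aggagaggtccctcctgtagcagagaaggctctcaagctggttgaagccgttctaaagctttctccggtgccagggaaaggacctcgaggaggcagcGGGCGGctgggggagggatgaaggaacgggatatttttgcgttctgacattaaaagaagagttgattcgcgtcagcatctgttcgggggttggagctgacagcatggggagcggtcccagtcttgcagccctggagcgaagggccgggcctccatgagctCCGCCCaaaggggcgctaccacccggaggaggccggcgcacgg
Cyfip2, chr11:46312309-46312608: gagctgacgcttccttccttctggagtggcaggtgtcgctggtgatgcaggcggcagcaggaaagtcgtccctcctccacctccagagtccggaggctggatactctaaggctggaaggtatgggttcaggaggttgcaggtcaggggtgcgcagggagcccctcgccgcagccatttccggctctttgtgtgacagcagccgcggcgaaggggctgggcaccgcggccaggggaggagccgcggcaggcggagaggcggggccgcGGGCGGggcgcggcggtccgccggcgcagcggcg
Sat1, chrX:155216400-155216699: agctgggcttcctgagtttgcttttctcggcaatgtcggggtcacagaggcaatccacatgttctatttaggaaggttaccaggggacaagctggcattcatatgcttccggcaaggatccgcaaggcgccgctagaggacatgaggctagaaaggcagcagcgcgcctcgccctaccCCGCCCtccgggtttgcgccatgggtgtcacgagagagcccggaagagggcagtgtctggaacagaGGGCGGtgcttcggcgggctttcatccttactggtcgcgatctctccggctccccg
Pycard, chr7:127993818-127994117: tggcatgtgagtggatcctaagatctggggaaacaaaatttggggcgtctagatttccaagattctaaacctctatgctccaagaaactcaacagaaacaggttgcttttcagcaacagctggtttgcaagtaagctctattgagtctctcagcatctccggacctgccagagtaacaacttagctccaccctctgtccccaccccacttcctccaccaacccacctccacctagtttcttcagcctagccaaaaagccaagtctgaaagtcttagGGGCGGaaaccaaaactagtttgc

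The GC box occurred 2 times in the printed Coro1a window, 1 time in that of Cyfip2, 2 times in that of Sat1 and 1 time in that of Pycard, and it was present in 35.7% of the 32851 windows of all genes. The T-box half-site TCACACCT, searched because the sort followed the T-box gene Eomes, was in none of the 5 windows and in 1.28% of all windows. The TATA box TATAAA (13.6% of all windows) and the E-box CACGTG (7.15%) were also in none of the 5, with both strands searched and no overlap among these motifs. The printed windows held 29 CpG dinucleotides in Cyfip2, 21 in Sat1, 19 in Coro1a and 3 in Pycard, against a median of 7 over all windows. A motif match describes these letters only.

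The libraries held between 254514 and 2608702 UMIs (unique molecular identifiers, 1 per counted transcript molecule), and the median cell had 5908 UMIs in Plzf +/+ and 6271.5 in Plzf lu/lu. Dazl, a germ cell gene, had a UMI in 92.6% of Plzf +/+ and 92.9% of Plzf lu/lu cells. In CPM (UMIs of a gene scaled to the same total of UMIs in every library), Zbtb16 itself was at 53.1 to 77.0 in Plzf +/+ and at 11.8 and 17.6 in Plzf lu/lu. Some markers of other cells differed between genotypes without overlap, and their part in the results was not tested beyond the cell sets left out below. The 13 Sertoli cell markers in the tables summed to 633 to 678 CPM in Plzf +/+ and to 1057 and 1763 in Plzf lu/lu. The 6 peritubular myoid markers summed to 12.2 to 36.2 and to 37.2 and 47.1, and the 6 endothelial markers to 12.5 to 25.8 and to 11.8 and 11.9. Both sums rest on few UMIs. Plzf lu/lu cells of plate 4 had 11 Actg2 and 1 Myh11 UMI, with 4 myoid genes at 0. Kdr had 42, 26 and 13 UMIs in Plzf +/+ and 3 and 0 in Plzf lu/lu. Pecam1 (3, 5 and 3 against 14 and 1) and Vwf (0, 2 and 0 against 7 and 1) went the other way. The 14 leukocyte markers in the tables overlapped, with 35.2 to 90.6 against 82.5 and 103. Cells with 3 or more UMIs of Clu, which is abundant in Sertoli cells, made up 2.68% of Plzf +/+ and 10.2% of Plzf lu/lu cells. In Plzf +/+ libraries, 7 of 9 other Sertoli markers tested were called higher in those cells, beside 591 of 11122 genes. Spermatid markers summed to 31834 CPM in them against 3710 in other Plzf +/+ cells, and spermatocyte markers to 6113 against 2577. Sertoli markers summed to 3692 against 513, and 17 of these 24 cells held a Dazl UMI. In Plzf lu/lu, Sertoli markers summed to 9719 against 540 and spermatid markers to 8658 against 1985. Well barcodes are reused from plate to plate, so plates 1 and 2 shared 271 of them, while the 2 libraries of plate 4 shared 0. In the Plzf +/+ library of plate 4, 5 cells lie in wells labelled Plzf lu/lu. These cells held 2 of that library's 30 Coro1a UMIs, 1 of its 2 Syt12 UMIs, 3 of its 23 Mdk UMIs and none of its Cyfip2, Sat1 or Pycard UMIs.

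Every member stood higher in each Plzf lu/lu library than in any of the 3 Plzf +/+ libraries, with no overlap. The same held for 16% of the 13728 genes tested. By edgeR at an adjusted p under 0.05, 5 of the 6 were called higher, beside 0.583% of all genes called higher and 0.816% called in either direction. Pycard was not called. This count follows the choice of the members and is no test of them. The number called rested on single libraries, with 1387 genes without Plzf +/+ plate 1 and 1 to 6 without any 1 of the other libraries. All 6 members were called without Plzf +/+ plate 1, and 0 of the 6 without any 1 of the other 4 libraries or with the replicate number as a block. Levels are given in CPM, in the order plates 1, 2 and 4 for Plzf +/+ and plates 3 and 4 for Plzf lu/lu.

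The cytoskeletal members were low in every Plzf +/+ library. Coro1a was at 9.86, 11.8 and 14.96 CPM in Plzf +/+ and at 75.1 and 86.4 in Plzf lu/lu. Its mean was 12.2 ± 2.57 (SD, n = 3) and 80.8 ± 7.99 (SD, n = 2), a 6.62-fold ratio. The distance between genotypes was far larger than the spread within either. Cyfip2 was at 2.82, 7.59 and 5.98 in Plzf +/+ and at 44.8 and 94.3 in Plzf lu/lu. Its mean was 5.46 ± 2.43 and 69.6 ± 35.0, a 12.7-fold ratio. The 2 Plzf lu/lu libraries differed from each other more for Cyfip2 than for any other member, and the lower one still lay above every Plzf +/+ library.

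Syt12 was almost absent from Plzf +/+ cells, with 6, 4 and 2 UMIs in the 3 libraries, or 2.82, 1.69 and 0.997 CPM. The Plzf lu/lu libraries held 94 and 9 UMIs, or 36.0 and 35.4 CPM. Its mean was 1.83 ± 0.919 and 35.7 ± 0.475, a 19.5-fold ratio that rests on 12 UMIs in all Plzf +/+ cells. Sat1, the polyamine enzyme, was at 32.4, 30.3 and 28.4 in Plzf +/+ and at 99.7 and 94.3 in Plzf lu/lu. The Sat1 mean was 30.4 ± 1.99 and 97.0 ± 3.80, a 3.19-fold ratio, and the libraries of a genotype lay close together.

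Mdk, the growth factor, was at 12.2, 9.69 and 11.5 CPM in Plzf +/+ and at 42.5 and 58.9 in Plzf lu/lu. Its mean was 11.1 ± 1.29 and 50.7 ± 11.6, a 4.56-fold ratio. Pycard was at 19.3, 16.02 and 16.5 in Plzf +/+ and at 29.9 and 43.2 in Plzf lu/lu. Its mean was 17.2 ± 1.76 and 36.6 ± 9.42, a 2.12-fold ratio and the smallest of the 6. It is the member nearest to the called threshold from outside: its fitted log2 difference of 1.02 was the 614th largest of 13728, while Sat1, the smallest of the called members, had 1.73 and was the 175th. Syt12 (4.28) was the 6th largest, Cyfip2 (3.55) the 13th, Coro1a (2.74) the 31st and Mdk (2.16) the 83rd.

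**Figure D1:**
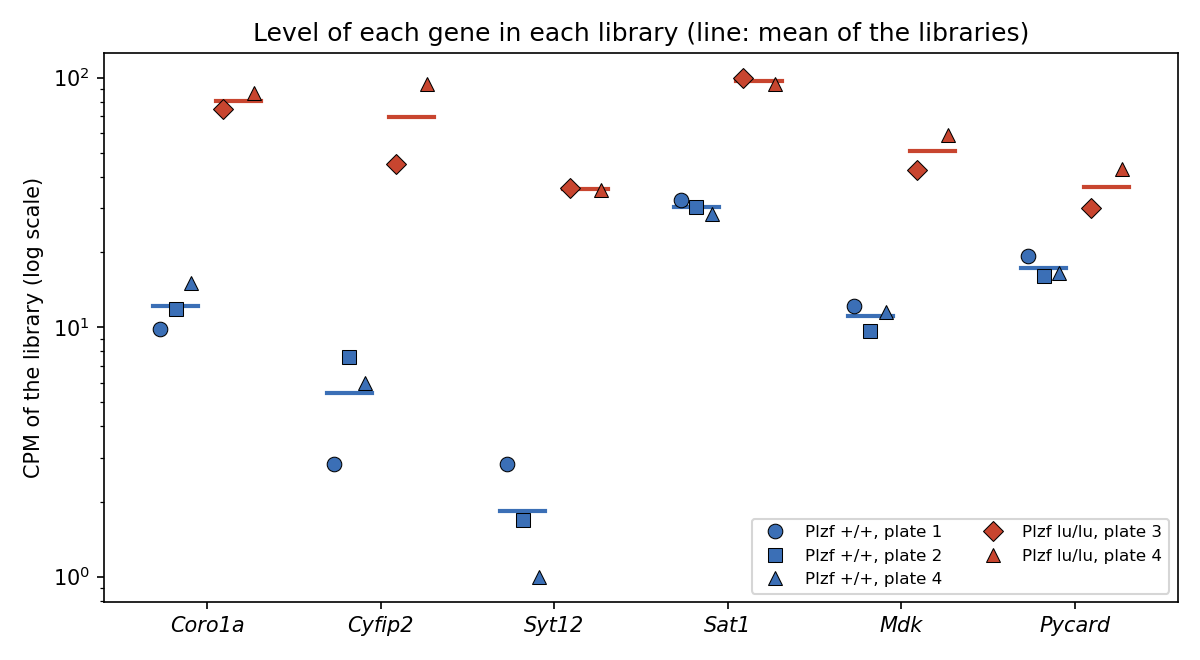
Level of each member in each library, in CPM, on a log axis, with 1 point per library and a bar at the mean of each genotype. For all 6 genes both Plzf lu/lu points lie above the 3 Plzf +/+ points, from Pycard at 2.12-fold to Syt12 at 19.5-fold.

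Plate 4 gave a comparison within 1 plate, with 277 Plzf +/+ and 38 Plzf lu/lu cells and 1 library each, so there is no test. The ratio of CPM there was 35.4 for Syt12 (95% exact interval 7.34 to 337), 15.8 for Cyfip2 (7.58 to 34.6), 5.78 for Coro1a (3.18 to 10.4), 5.14 for Mdk (2.49 to 10.3), 3.32 for Sat1 (1.97 to 5.43) and 2.63 for Pycard (1.20 to 5.33). These intervals cover counting error only. Without the 5 cells in wells labelled Plzf lu/lu, the Syt12 ratio was 70.4 (9.76 to 3087), resting on 1 Plzf +/+ UMI, and the others lay between 2.61 for Pycard and 15.7 for Cyfip2. Plates 1 and 2 held Plzf +/+ cells only and plate 3 held Plzf lu/lu cells only, so outside plate 4 the plate and the genotype cannot be told apart.

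The rise lay mostly in the share of cells with a UMI. Coro1a was seen in 6.62%, 6.93% and 10.1% of Plzf +/+ cells and in 36.6% and 36.8% of Plzf lu/lu cells. Cyfip2 was seen in 1.89%, 5.28% and 4.33% and in 26.4% and 42.1%. Syt12 was seen in 1.26%, 1.32% and 0.722% and in 22.0% and 13.2%. For these 3 genes the share of cells rose from a small minority to at least 13.2% in each Plzf lu/lu library.
Sat1 was seen in 18.6%, 19.5% and 17.3% of Plzf +/+ cells and in 40.8% and 34.2% of Plzf lu/lu cells. Mdk was seen in 7.57%, 5.61% and 6.86% and in 22.6% and 23.7%. Pycard was seen in 11.7%, 9.57% and 10.5% and in 18.8% and 15.8%. No member was seen in most cells of either genotype, and for all 6 both Plzf lu/lu shares were above the 3 Plzf +/+ shares, as they were for 15.7% of all genes tested. This count follows the choice of the members.

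UMIs per positive cell were also higher in both Plzf lu/lu libraries for 5 of the 6 members, by less. The same held for 17.1% of the 12817 tested genes with a UMI in every library. Among cells with a Coro1a UMI the mean was 1.00, 1.33 and 1.07 UMIs in Plzf +/+ and 1.70 and 1.57 in Plzf lu/lu. For Cyfip2 it was 1.00, 1.12 and 1.00 and then 1.41 and 1.5. For Sat1 it was 1.17, 1.22 and 1.19 and then 2.03 and 1.85, the clearest separation of the 6. For Mdk it was 1.08, 1.35 and 1.21 and then 1.56 and 1.67. For Pycard it was 1.11, 1.31 and 1.14 and then 1.32 and 1.83, where plate 3 barely passed the highest Plzf +/+ library. Without cells with 2 or more leukocyte marker UMIs, Pycard averaged 1.425 ± 0.247 over the Plzf lu/lu libraries and 1.19 ± 0.113 over those of Plzf +/+. Syt12 overlapped, with 1.5, 1.00 and 1.00 in Plzf +/+ and 1.36 and 1.80 in Plzf lu/lu.

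The log2 ratio of UMIs per cell is the sum of a part from the share of cells and a part from UMIs per positive cell, each averaged over libraries. For Syt12 the total was 4.45, of which 4.00 lay in the share of cells, or 89.8%. Cyfip2 had 3.25 of 3.73 in the share (87.0%), Mdk 1.80 of 2.22 (81.3%) and Coro1a 2.25 of 2.79 (80.6%). The share counted for less in Pycard, with 0.71 of 1.11 (64.1%), and in Sat1, with 1.02 of 1.72 (59.2%). For Pycard it was not steady, at 48.0% without plate 3, 83.8% without Plzf lu/lu of plate 4 and 43.1% after thinning to 1000 UMIs. At such low counts a higher level in each cell also turns empty cells into positive ones, so more expressing cells and more molecules per cell cannot be told apart from the shares alone. When each cell was thinned to 2000 UMIs, the median part in UMIs per positive cell fell to 0.09 over the 5 members other than Syt12, from 0.47 over all 6, and was 0.52 for Cyfip2, 0.39 for Sat1, 0.09 for Coro1a, 0.06 for Pycard and -0.08 for Mdk.

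Cells with 2 or more UMIs of a member were rare in Plzf +/+ and less rare in Plzf lu/lu. Coro1a reached 2 UMIs in 0, 5 and 2 cells of the Plzf +/+ libraries and in 44 and 5 of the Plzf lu/lu libraries. Sat1 did so in 9, 9 and 7 cells and in 60 and 6. Mdk did so in 1, 1 and 3 cells and in 28 and 2, and 1 Plzf +/+ cell of plate 2 held 7 of that library's 23 Mdk UMIs. Cyfip2 gave 0, 2 and 0 cells and then 24 and 5, Syt12 gave 2, 0 and 0 and then 15 and 3, and Pycard gave 4, 8 and 4 and then 14 and 3.

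**Figure D2:**
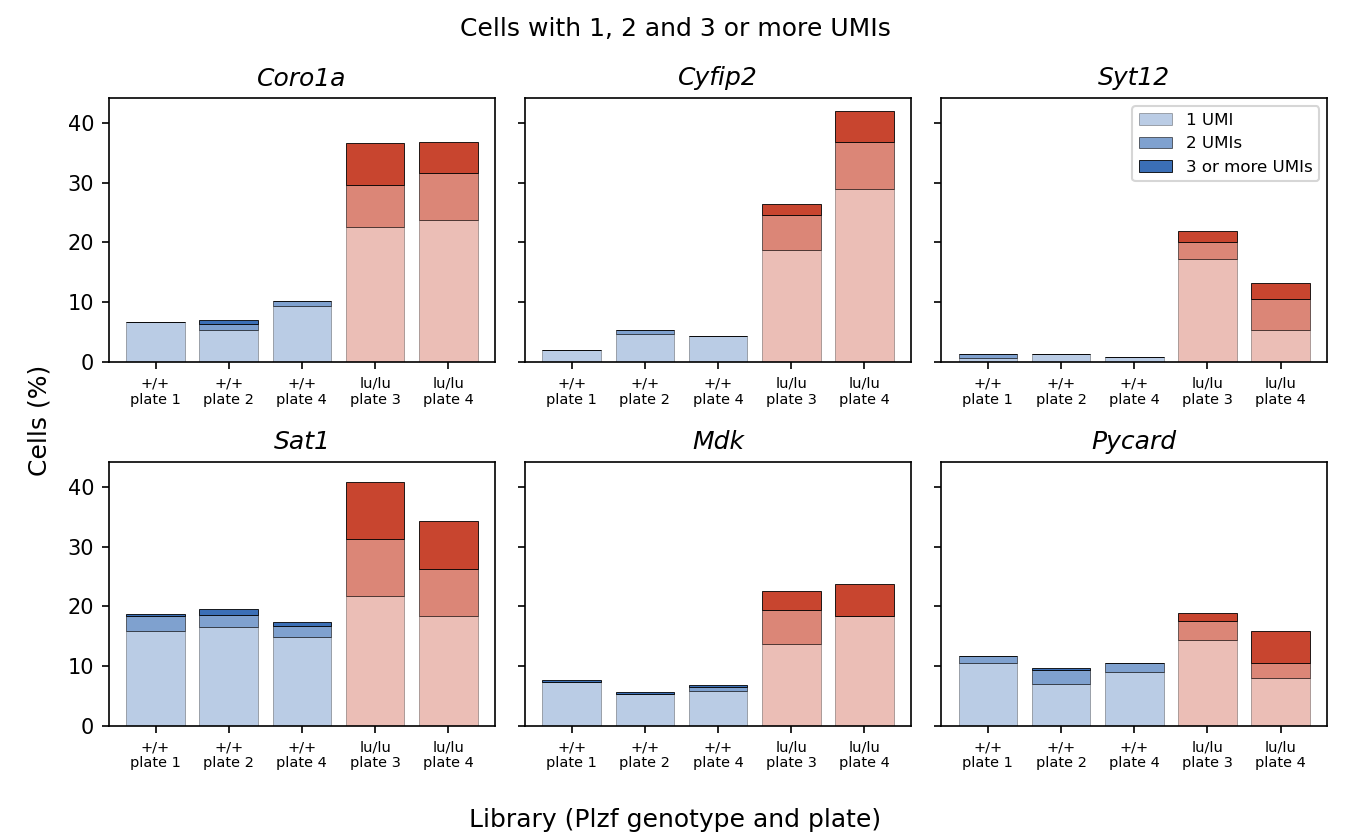
Stacked bars of the cells with 1, 2 and 3 or more UMIs of each member, as a percentage of the cells of each library, from pale to dark (Plzf +/+ blue, Plzf lu/lu red). In every panel both Plzf lu/lu bars are taller than the 3 Plzf +/+ bars, with the smallest gap for Pycard (15.8% and 18.8% against at most 11.7%).

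Depth differed little between genotypes overall but bears on shares. When each cell was thinned to 2000 UMIs, leaving 834 Plzf +/+ and 333 Plzf lu/lu cells, Coro1a was seen in 2.52% and 14.7%, Cyfip2 in 1.80% and 9.01%, Sat1 in 6.95% and 15.6% and Mdk in 1.92% and 6.61%. Syt12 remained in 1 Plzf +/+ cell (0.12%) and in 5.71% of Plzf lu/lu cells. Pycard did not separate at this depth. Its share was 3.24% in Plzf +/+ (95% exact interval 2.14 to 4.68) and 4.80% in Plzf lu/lu (2.77 to 7.69), and its library values of 3.58%, 2.17% and 3.98% overlapped 4.93% and 3.45%.
By depth class, Coro1a was seen in 6.29% of Plzf +/+ and 13.8% of Plzf lu/lu cells under 3000 UMIs, and in 17.1% and 60.3% of cells with 12000 or more. Sat1 went from 6.99% and 20.7% to 30.5% and 66.2% over the same classes, and Syt12 from 0% and 3.45% to 3.81% and 41.2%. Pycard was at 6.29% and 5.17% under 3000 UMIs and at 14.6% and 27.7% from 6000 to under 12000. The Plzf lu/lu share was the higher one in all 4 classes for the 5 other members.

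**Figure D3:**
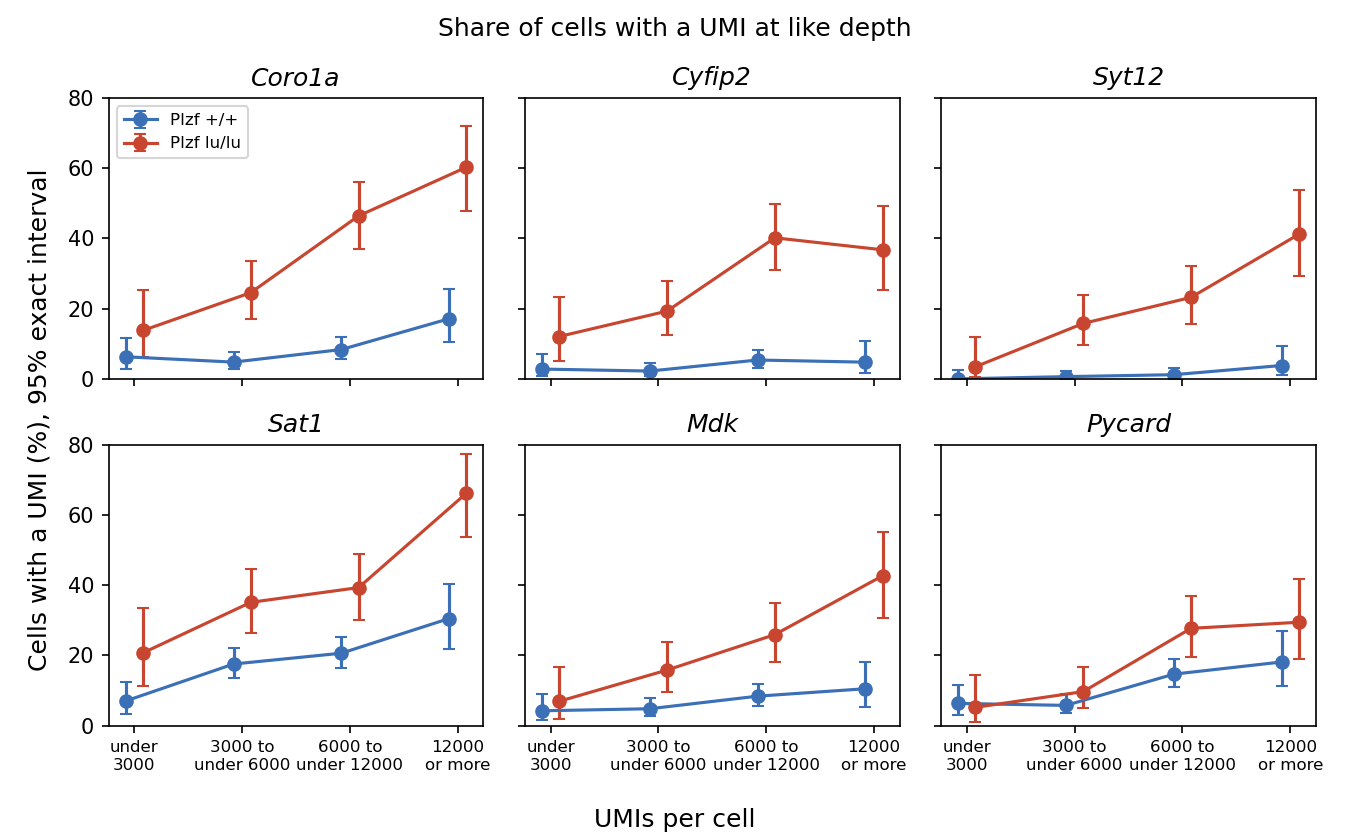
Share of cells with a UMI of each member (%) against the depth class of the cell in UMIs, for Plzf +/+ and Plzf lu/lu, with 95% exact intervals that cover counting error. The Plzf lu/lu share lies above the Plzf +/+ share in every class except for Pycard under 3000 UMIs (6.29% against 5.17%), and intervals overlap in the lowest class for all 6 members and, for Pycard, in all classes but 6000 to under 12000.

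At full depth the rise was about as large without the Clu-rich cells. Without them, Coro1a was at 10.2, 12.1 and 15.8 CPM in Plzf +/+ and at 81.6 and 89.0 in Plzf lu/lu. Syt12 was at 2.91, 1.73 and 1.09 and at 40.4 and 36.4, and Cyfip2 at 2.91, 7.81 and 6.53 and at 50.1 and 97.0. Sat1 was at 33.5, 30.4 and 30.5 and at 104 and 89.0, Mdk at 12.6, 9.97 and 12.5 and at 46.6 and 60.6, and Pycard at 18.4, 15.6 and 18.0 and at 31.5 and 44.5. The part of the rise in the share of cells was 80.6% for Coro1a, 87.0% for Cyfip2, 90.03% for Syt12, 59.9% for Sat1, 81.6% for Mdk and 65.2% for Pycard. After thinning to 2000 UMIs without Clu-rich cells, the Sat1 ratio of means was 1.98, against 2.42 with them. The library shares of Sat1 and Pycard then overlapped between genotypes, and those of the other members did not.
The 36 Clu-rich Plzf lu/lu cells held 12 of 218 Coro1a UMIs (5.50%), 27 of 284 Sat1 UMIs (9.51%) and 3 of 103 Syt12 UMIs (2.91%), while they held 12.6% of all UMIs of that genotype. For Cyfip2, Mdk and Pycard the portion was 2.84%, 4.76% and 7.87%. Each member was thus less frequent per UMI in the pooled Clu-rich Plzf lu/lu cells than in that genotype as a whole. On plate 4 alone, the 2 Clu-rich cells held 2 Sat1 UMIs, or 278 CPM against 94.3 in that library, and no UMI of the other members.

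Cells with 2 or more UMIs of leukocyte markers numbered 27 in Plzf +/+ and 28 in Plzf lu/lu, of which 27 were on plate 3. Of the 28, 24 also held a Dazl UMI, and their median depth was 12613 UMIs. Those of Plzf +/+ held 11 of 79 Coro1a UMIs (13.9%) and 2.95% of all UMIs of that genotype. Those of Plzf lu/lu held 13.9% of all UMIs, and 21.1% of Coro1a, 21.4% of Syt12, 19.4% of Sat1, 18.0% of Pycard, 11.3% of Cyfip2 and 10.3% of Mdk UMIs. Without these cells Coro1a was at 10.3, 8.63 and 13.8 CPM in Plzf +/+ and at 68.3 and 83.1 in Plzf lu/lu, and Pycard was at 19.6, 14.2 and 16.3 and at 29.4 and 31.7. The ratio of means without these cells was 18.0 for Syt12, 12.5 for Cyfip2, 6.94 for Coro1a, 4.52 for Mdk, 3.02 for Sat1 and 1.82 for Pycard, and no member's libraries overlapped. On plate 4, where this left out 1 Plzf lu/lu and 8 Plzf +/+ cells, the Pycard ratio was 1.94, against 2.63 with all cells. Cells with a Dazl UMI, 92.9% of Plzf lu/lu cells, held 93.3% to 100% of each member's Plzf lu/lu UMIs, and all 103 Syt12 UMIs. In Plzf +/+ they held 87.3% of Coro1a UMIs. Plzf lu/lu cells without a Dazl UMI averaged 136 CPM for Pycard and 210 for Sat1, against 31.5 and 91.2 in cells with one. The other members averaged lower without it. Among the 36 Clu-rich Plzf lu/lu cells, 20 also held a Dazl UMI. In cells with a Dazl UMI only, the fitted log2 difference between genotypes was 4.32 for Syt12, 3.59 for Cyfip2, 2.91 for Coro1a, 2.23 for Mdk, 1.71 for Sat1 and 0.93 for Pycard. In the 66 Plzf +/+ and 25 Plzf lu/lu cells without a Dazl UMI no Syt12 was seen.

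The number of members seen in a cell was also counted. The members were chosen as higher in Plzf lu/lu, so more cells with several of them follows from the higher share of each, and whether members share cells beyond that was not tested. At least 1 of the 6 was seen in 38.2% of Plzf +/+ cells (95% exact interval 35.0 to 41.5) and in 75.9% of Plzf lu/lu cells (71.0 to 80.2). At least 2 were seen in 8.14% (6.43 to 10.1) and in 48.9% (43.5 to 54.2). The library values for 2 or more were 6.94%, 9.57% and 7.94% in Plzf +/+ and 48.4% and 52.6% in Plzf lu/lu. In Plzf lu/lu, 12 cells held 5 of the members and none held all 6. After thinning to 2000 UMIs, at least 2 members were seen in 0.839% and 10.5% of cells.
The pair seen together in most Plzf lu/lu cells was Coro1a and Sat1, in 66 of 352, followed by Coro1a with Cyfip2 and Cyfip2 with Sat1, in 50 each. Across the 352 cells the correlation of normalised UMIs was weak for every pair, with a median Pearson r of 0.0675 and a highest value of 0.206 for Coro1a and Cyfip2. After thinning to 2000 UMIs the median r was 0.0121 and that of Coro1a and Cyfip2 was -0.0418. The highest was then 0.203 for Syt12 and Pycard, seen together in 4 of 333 cells. Cells of a library share its plate and depth range, so these values describe the cells only.

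**Figure D4:**
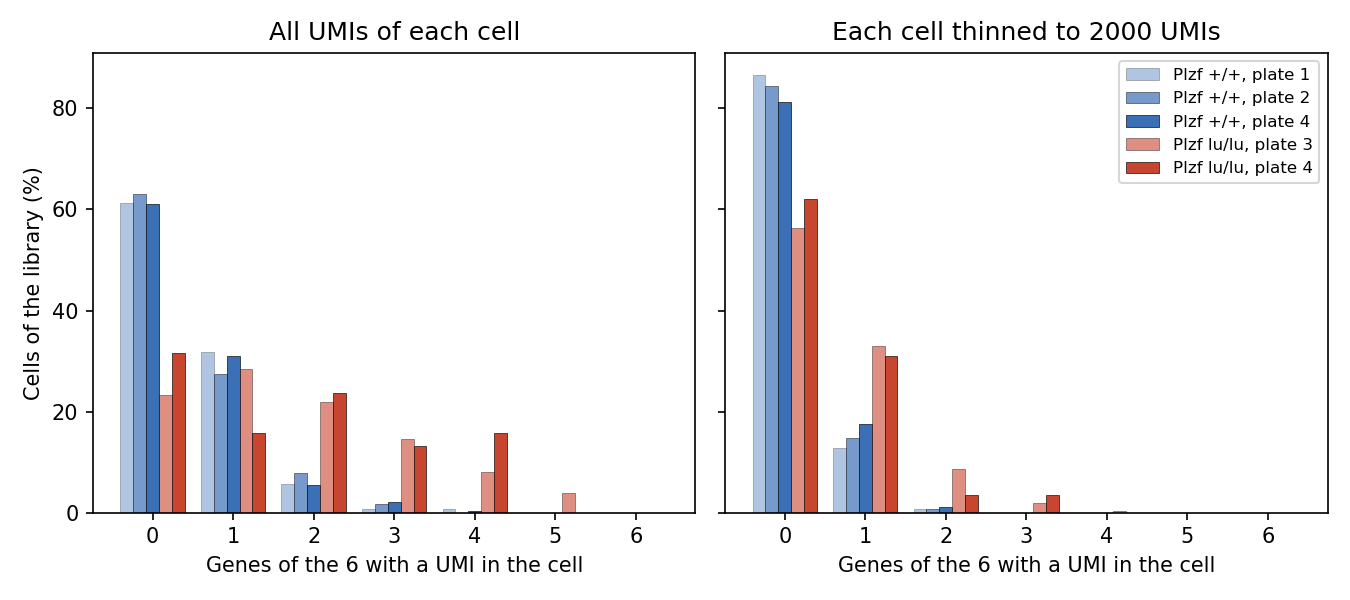
Cells by how many of the 6 members had a UMI in them, as a percentage of the cells of each library, with all UMIs (left) and after thinning each cell to 2000 UMIs (right). On the left the Plzf +/+ libraries peak at 0 members, and the Plzf lu/lu libraries have 48.4% and 52.6% of their cells at 2 or more.

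Whether the members follow Gfra1, which the choice of members did not use, was tested between cells of the same library. In the Plzf +/+ libraries, 31 of 10894 genes (0.285%) differed between cells with and without a Gfra1 UMI by edgeR at an adjusted p under 0.05, and none of the 4 members fitted did. Without plate 1, 2 or 4 the number of genes was 3, 96 and 1. Sat1 was at 35.0, 31.7 and 31.1 CPM in cells with Gfra1 and at 26.5, 25.5 and 23.3 in cells without, the same order in 3 of 3 libraries, with a log2 difference of 0.36 (SE 0.26, adjusted p 0.733). Mdk had the opposite order in 3 of 3, at 10.8, 8.05 and 8.34 against 15.6, 15.7 and 17.5, with a log2 difference of -0.85 (SE 0.39, adjusted p 0.556). Pycard was at 18.8, 11.3 and 12.9 against 20.3, 33.4 and 23.3, with a log2 difference of -0.85 (SE 0.36, adjusted p 0.510). Coro1a was at 11.4, 7.51 and 14.4 against 6.23, 27.5 and 16.02, with no common order between libraries and a log2 difference of -0.52 (SE 0.51, adjusted p 0.824), which was 0.17 without plate 2. Cyfip2 and Syt12 did not pass the filter on low counts. Without it, edgeR gave a log2 difference of -0.41 for Cyfip2 (SE 0.67, adjusted p 0.962) and 1.97 for Syt12 (SE 1.61, adjusted p 0.962). Of the 12 Syt12 UMIs in Plzf +/+ cells, 11 lay in the 566 cells with Gfra1 and 1 in the 331 without. Cells with Gfra1 were deeper, with a median of 6559.5 against 4596 UMIs in Plzf +/+ and 9417.5 against 4545 in Plzf lu/lu.

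In the Plzf lu/lu libraries, 15 of 10008 genes (0.15%) differed between the Gfra1 classes and again no member did. Syt12 was at 52.2 and 40.0 CPM with Gfra1 and at 20.4 and 30.9 without, with a log2 difference of 1.10 (SE 0.46, adjusted p 0.557). Sat1 was at 124 and 112 against 76.2 and 77.1, with a log2 difference of 0.60 (SE 0.30, adjusted p 0.656), and Coro1a was at 92.8 and 96.1 against 58.1 and 77.1, with a log2 difference of 0.52 (SE 0.33, adjusted p 0.763). These 3 genes were higher with Gfra1 in both libraries without passing the test. Cyfip2 was at 48.3 and 128 against 41.5 and 61.7 (log2 difference 0.42, SE 0.39, adjusted p 0.872). Mdk, at 43.7 and 56.1 against 41.5 and 61.7, and Pycard, at 31.2 and 16.02 against 28.7 and 69.4, moved in opposite directions on the 2 plates. Both classes of Plzf lu/lu cells lay above both classes of Plzf +/+ cells for every member but Pycard, so the higher level was present with and without a Gfra1 UMI. The change of the Gfra1 difference with genotype was called for 0 of 10604 genes (0%) by edgeR, with 781 at an unadjusted p under 0.05. Without a filter on low counts 194 were called, and leaving out plate 3 gave 18. The change was 1.04 for Coro1a (SE 0.62, adjusted p 0.785; 0.36 without plate 2 and 1.55 without plate 1), 0.80 for Mdk (SE 0.52, adjusted p 0.825), 0.45 for Pycard (SE 0.64, adjusted p 0.949; -1.31 without plate 3) and 0.23 for Sat1 (SE 0.38, adjusted p 0.962).

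**Figure D5:**
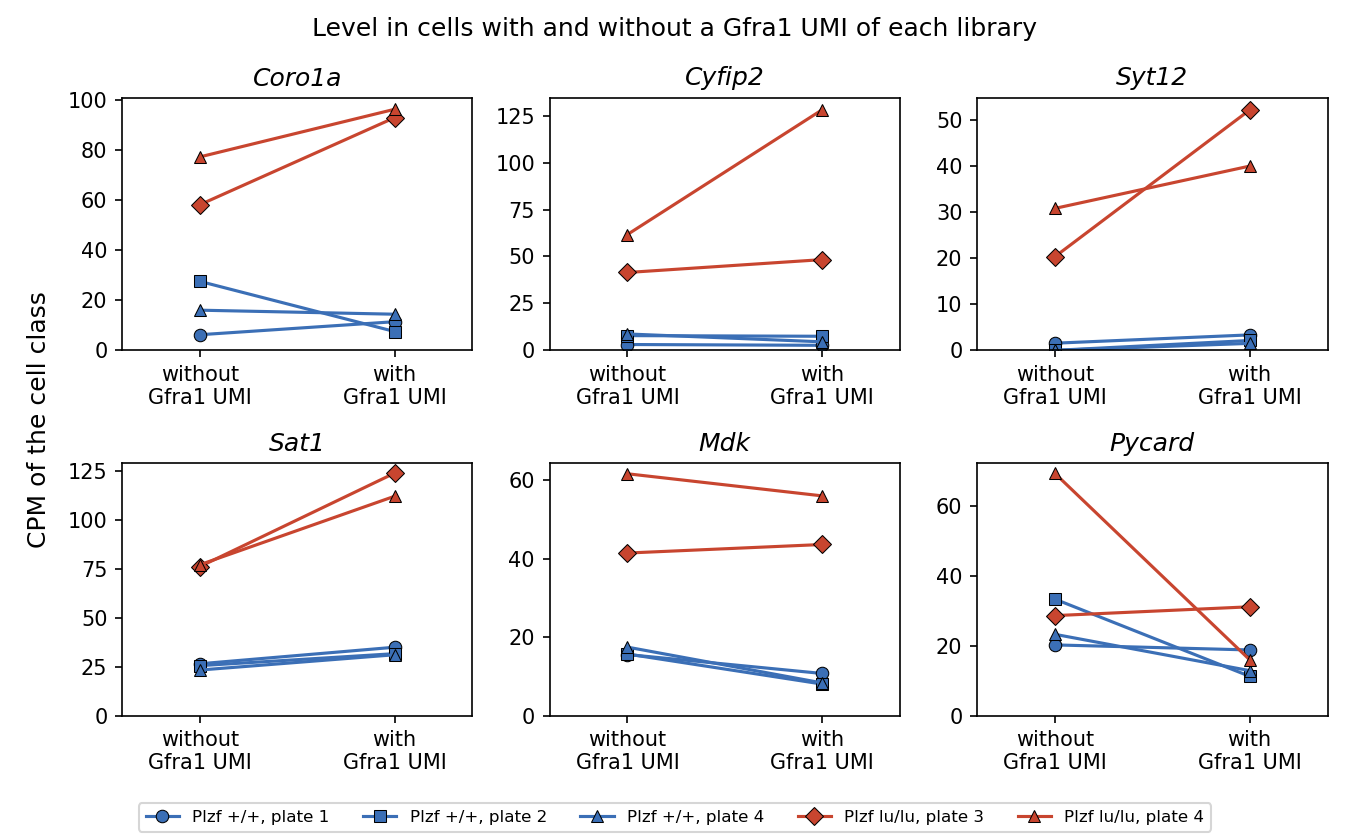
Level of each member in cells without and with a Gfra1 UMI, in CPM of the cell class, with 1 line per library. The Plzf lu/lu lines lie above the Plzf +/+ lines for Coro1a, Cyfip2, Syt12, Sat1 and Mdk in both classes, and the lines of Pycard cross.

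Clu-rich and other cells of the Plzf +/+ libraries differed in 623 of 11122 genes (5.6%) by edgeR, none of them among the 3 members fitted, and in 30, 1380 and 1 genes without plate 1, 2 or 4. The 24 Clu-rich cells held 1 Coro1a, 3 Sat1 and 5 Pycard UMIs and 0 of Cyfip2, Syt12 and Mdk. The fitted log2 difference was -1.90 for Coro1a (SE 1.55, adjusted p 0.640), -1.46 for Sat1 (SE 1.04, adjusted p 0.570) and 0.19 for Pycard (SE 1.03, adjusted p 0.960), and the other members, with no UMI in the Clu-rich cells, did not pass the filter on low counts. The Pycard value was -0.68 without plate 1, -0.19 without plate 2 and 1.10 without plate 4. That of Sat1 was -0.96 without plate 1 and -2.64 without plate 2, and that of Coro1a, which then had no UMI in Clu-rich cells, was -6.67 without plate 4. The errors span several-fold, so only very large differences could be seen.

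Cells with a UMI of Mki67 or Top2a, genes of dividing cells, differed from the other Plzf +/+ cells in 753 of 10873 genes (6.93%) by edgeR, none of them among the 4 members fitted, and in 2464, 2 and 472 genes without plate 1, 2 or 4. Cyfip2 and Syt12 did not pass the filter on low counts. Sat1 was at 28.4, 27.9 and 25.1 CPM in these cells and at 39.7, 35.6 and 36.0 in the rest, lower in 3 of 3 libraries, with a log2 difference of -0.41 (SE 0.23, adjusted p 0.326). Pycard was at 23.3, 16.7 and 18.7 against 11.9, 14.5 and 11.4, higher in 3 of 3, with a log2 difference of 0.66 (SE 0.33, adjusted p 0.256). Mdk was at 14.6, 9.92 and 12.9 against 7.94, 9.22 and 8.17, also higher in 3 of 3 (log2 difference 0.58, SE 0.39, adjusted p 0.401). Coro1a had no common order (log2 difference -0.36, SE 0.48, adjusted p 0.698; 0.42 without plate 2). None of these differences passed the test. In Plzf lu/lu, Coro1a was at 67.3 and 56.7 in cells with a UMI of Mki67 or Top2a and at 93.1 and 154 in the rest, above every Plzf +/+ class.

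No other gene of the members' pathways was called higher in Plzf lu/lu, beside 0.583% of all genes tested. At that share, lists this small would give few or no calls, so this is no result about the pathways. Over all 13728 genes the median log2 difference between genotypes was 0.00. Of 6 other coronins 4 could be tested and 0 were called. All 4 had a log2 difference above 0, with a median of 0.23, and 1 lay higher in Plzf lu/lu without overlap, beside 16% of all genes. Coro1b was at 209, 198 and 190 CPM in Plzf +/+ and at 205 and 196 in Plzf lu/lu (log2 difference 0.07, SE 0.14, adjusted p 0.930), and Coro1c had a log2 difference of 0.27 (SE 0.17, adjusted p 0.569). Of 22 genes of the WAVE and Arp2/3 complexes and Rac, 20 were tested and 0 called. The log2 difference was above 0 for 15, with a median of 0.16, and without overlap 5 lay higher and 2 lower, beside 16% and 18.5% of all genes. Brk1, a WAVE subunit, had a log2 difference of 0.12 (SE 0.14, adjusted p 0.803) and Arpc2, an Arp2/3 subunit, one of -0.20 (SE 0.17, adjusted p 0.697). The Arp2/3 subunit Arpc1b, named after its values were seen, had 1.02 (SE 0.21, adjusted p 0.0726).

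Of 21 other synaptotagmins and synaptotagmin-like genes 6 passed the filter on low counts and 0 were called. These 6 lay lower in each Plzf lu/lu library than in any Plzf +/+ library, as did 18.5% of all genes tested, and their median log2 difference was -1.06. The other 14 in the tables did not pass the filter, with 25 UMIs or fewer in any library. Without overlap 4 of these lay higher and 2 lower. Sytl4, which lay higher, had 2, 6 and 6 UMIs in Plzf +/+ and 25 and 1 in Plzf lu/lu. Syt9 had -0.75 (SE 0.38, adjusted p 0.425) and Syt11 had -0.45 (SE 0.29, adjusted p 0.570). Syt6, named after its values were seen, had 25, 21 and 17 UMIs in Plzf +/+ and 0 in both Plzf lu/lu libraries, at least 9.25-fold lower against a limit of 3 UMIs over both libraries (edgeR adjusted p 0.0508).
Of 20 genes of polyamine metabolism 18 were tested and 0 called, and 16 had a log2 difference above 0, with a median of 0.27. Without overlap 4 lay higher and 2 lower, beside 16% and 18.5% of all genes. Eif5a, the factor that carries a spermidine-derived residue, had 0.40 (SE 0.13, adjusted p 0.205), and Oaz1, an antizyme that lowers polyamine synthesis, had 0.27 (SE 0.15, adjusted p 0.484).

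Of 16 genes for midkine's relative and receptors 10 were tested and 0 called. The log2 difference was above 0 for 6, with a median of 0.10, and without overlap 3 lay higher and 3 lower, beside 16% and 18.5% of all genes. Sdc4, a heparan sulfate proteoglycan, was at 346, 308 and 354 CPM in Plzf +/+ and at 534 and 558 in Plzf lu/lu (log2 difference 0.74, SE 0.14, adjusted p 0.0542), and Ncl, nucleolin, had 0.19 (SE 0.19, adjusted p 0.771). Of 21 inflammasome genes 6 were tested, 0 were called higher and 1 was called lower, beside 0.233% of all genes called lower. The log2 difference was above 0 for 5, with a median of 0.55, and without overlap 2 lay higher and 1 lower, beside the same shares. The gene that fell was Txnip, a thioredoxin-binding protein, at 367, 323 and 337 in Plzf +/+ and 174 and 181 in Plzf lu/lu (log2 difference -0.91, SE 0.14, adjusted p 0.0351). Without Clu-rich cells the Txnip difference was -0.85 with an adjusted p of 0.0729, and the adjusted p was 0.0459 without cells with leukocyte markers. The call was also lost with the replicate number as a block (adjusted p 0.595) and without any 1 library other than Plzf +/+ plate 1 (adjusted p 0.135 to 0.352), with a difference of -0.90 to -0.96 in these fits.

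The genes most like each member over the 897 Plzf +/+ cells were found by Pearson r of normalised UMIs among 11174 genes. These had a UMI in at least 5% of the cells, which left out Cyfip2 and Syt12 as candidates. Coro1a was most like H2-D1 (r = 0.359), H2-K1 (0.348) and Thy1 (0.287), which encode MHC class I chains and a surface glycoprotein. The other members had weaker nearest genes. These were Prss36 (0.224), Gm3272 (0.196) and Rrad (0.186) for Syt12, and Ttc6 (0.220), Zfp771 (0.212) and Gm17535 (0.208) for Mdk. For Pycard they were Rell1 (0.191), Xlr (0.175) and Hist1h2al (0.170), for Cyfip2 Svil (0.174), C330007P06Rik (0.163) and Zfp454 (0.153), and for Sat1 Dhodh (0.168), Tmem106b (0.166) and Ccdc55 (0.159). In counts this sparse such weak values are no finding. No member that could be a candidate was among the 3 genes most like another.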

How the data were processed

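Single tdTOMATO-positive germ cells were profiled by 3′ tag sequencing with well barcodes of 12 bases and UMIs of 8 bases. The deposited values were raw UMI counts per gene and cell, 1 table per genotype, which the authors made with bcl2fastq 2.18.0.12, Picard 2.9.3 and STAR 2.5.4a on GRCm38, as named in the submitters' processing notes. Cells were assigned to libraries by the ending of their names and no further cell filter or doublet caller was applied. Counts were summed per library, since cells of a library are not replicates, and tested with edgeR 4.0.16 (R 4.3.3; TMM, filterByExpr, robust quasi-likelihood, Benjamini-Hochberg at 0.05), with DESeq2 1.42.0 as an alternative. Contrasts of cell classes kept library as a block. CPM values used raw library totals. Library totals ran from 254514 to 2608702 UMIs. The tests were checked on simulated counts. Exact intervals (Clopper-Pearson, 95%) cover counting error only. Thinning drew 2000 UMIs per cell with a fixed seed.

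The members and gene lists were chosen with earlier results of these data known. Named genes were the 6 members, the called genes of each pathway list or otherwise its 2 most abundant, and the 3 most similar genes of each member. Restricting to cells with a Dazl UMI, leaving out cells in wells labelled for the other genotype, the Gfra1 contrast in Plzf lu/lu and its change with genotype were chosen after seeing the data. Gene positions and promoters were taken from RefSeq.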

Additional observations from a re-analysis of the deposited data

Results flagged for a closer look

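The CPM of Cyfip2 had opposite orders by Gfra1 class in the 2 genotypes. In Plzf +/+ it was lower in cells with a Gfra1 UMI in 3 of 3 libraries, at 2.69, 7.51 and 4.55 CPM against 3.12, 7.86 and 8.74, and in Plzf lu/lu it was higher in both, at 48.3 and 128 against 41.5 and 61.7. The difference between genotypes was 0.87 on the log2 scale (SE 0.74) by edgeR without a filter on low counts, with an adjusted p of 1.0, so it did not pass the test. The Plzf +/+ values rest on 36 Cyfip2 UMIs in all, with a log2 difference of -0.41 (SE 0.67). The share of Plzf +/+ cells with a Cyfip2 UMI had the other order, with a mean of 3.89% with Gfra1 and 3.61% without.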

How the results depend on the processing

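The genotype log2 differences of the 6 members kept their direction in all 78 alternative values (13 for each gene), of which 73 lay within the spread between libraries; the ranges were 2.53 to 2.96 for Coro1a, 3.04 to 4.10 for Cyfip2, 3.97 to 5.15 for Syt12, 1.65 to 1.79 for Sat1, 1.98 to 2.42 for Mdk and 0.84 to 1.39 for Pycard. Direction was fixed by the choice of members and is no sign of stability. The median part in the share of cells, 2.02 on the log2 scale, was 1.37 after thinning to 2000 UMIs, over the 5 members other than Syt12 (1.80 for the same 5 unthinned), and 2.65 when a positive cell needed 2 UMIs, over Sat1, Mdk and Pycard only (1.02 for the same 3 at 1 UMI). The median part in UMIs per positive cell, 0.47, was 0.09 and 0.08 after thinning to 2000 and 1000 UMIs and -0.93 when a positive cell needed 2 UMIs. Numbers of called genes were far less steady. For genotype, 112 genes were called, 583 with no filter, 61 without Clu-rich cells, 50 in cells with a Dazl UMI only and 1 to 1387 when a library was left out. Correlations of deviations between libraries with the same replicate number were 0.0235 and -0.00618, with no sign of pairing. With 2 Plzf lu/lu libraries the deviations of these mirror each other, so this check says little. The 2 libraries of plate 4 (0.0467) carry different numbers, so the block did not pair them. With the replicate number as a block 0 genes were called, with 973 at an unadjusted p under 0.05. For the Gfra1 classes of Plzf +/+ cells, 31 genes were called, 16 by DESeq2, 228 with no filter, 4 without the library block, 145 after thinning, 75 without Clu-rich cells and 1 to 96 when a library was left out. For Clu-rich cells, 623 were called, 194 with all 5 libraries, 62 without the block, 236 after thinning and 1 to 1380 when a library was left out. For cells with Mki67 or Top2a, 753 were called, 339 by DESeq2, 2010 with no filter, 125 without the block, 322 after thinning, 1457 without Clu-rich cells and 2 to 2464 when a library was left out. For the change of the Gfra1 difference with genotype, 0 were called, 194 with no filter and 0 to 18 when a library was left out. No member's uncalled within-library difference is firm in direction where it turned: Coro1a by Gfra1 was 0.0072 with all 5 libraries and -1.05 to 0.17 when a library was left out (0.17 without Plzf +/+ replicate 2), and by Mki67 or Top2a -0.79 to 0.42 (0.42 without that replicate). Pycard by Clu was -0.68 without Plzf +/+ replicate 1, -0.19 without replicate 2 and 1.10 without replicate 3, and its Gfra1 change with genotype was -1.31 without Plzf lu/lu replicate 1 and 0.92 without replicate 2. The cause was not tested. The smallest library, Plzf lu/lu of plate 4, held 254514 UMIs in 38 cells and limits every value that rests on it.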
